A study of Triticum aestivum with 48 samples.

Results

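The roots of K307, 1 of 4 wheat (Triticum aestivum) genotypes in the study, were compared between low and control nitrogen (N) supply on the Affymetrix Wheat Genome Array, which reads each transcript with a group of short probes called a probe set. The comparison used the 3 arrays labelled K307 N stressed root, from seedlings given 0.08 mM calcium nitrate (low N), against the 3 arrays labelled K307 N control root, given 8 mM (control N). These are 6 of the 48 arrays of the series, and all 61179 probe sets other than the 111 manufacturer's controls entered the comparison. Both groups were 15 day old seedlings of the same genotype, grown in vermiculite and perlite with a medium whose only N source was calcium nitrate. The low supply therefore also held less of that salt's calcium, and the effects of nitrate and of this calcium cannot be told apart. The same genotype's shoots, and the roots of K9107, HD2967 and Chotilarma (CL), each with 3 low N and 3 control N arrays, served for the comparisons of responses.

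Plant roots take up nitrate and ammonium through families of membrane transporters and assimilate them through nitrate reductase, nitrite reductase, glutamine synthetase and glutamate synthase. Roots kept short of N commonly raise high-affinity transporters, alter their growth and shift carbon among sugars, storage polymers and organic acids such as malate. No gene of N uptake or assimilation was among the 102 genes that carried an informative name here, so those steps were not analysed here. The named genes that touch root physiology most directly are the malate channel TaALMT1, the plasma membrane proton pump ha1, and the enzymes of fructan, sucrose and starch.

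The deposited values are log2 signals, so a difference of 1 is a 2-fold change. The medians of the 48 arrays fell in 4 separate ranges, called normalization sets 1 to 4, which cut across the groups. Of the K307 low N root arrays, array 1 (median 4.47) and array 3 (4.38) lay in set 2 and array 2 (4.62) in set 3. Of the control N arrays, array 1 (4.64) lay in set 3, array 2 (5.37) in set 4 and array 3 (4.44) in set 2. Every difference below was fitted with the set as a term, and values called set-adjusted are on the scale of set 2. Control array 2 is the only K307 root array of set 4, so its adjustment rests on arrays of K9107 and HD2967. The labels mention 3 sets of pots per genotype but do not tie arrays to pots, so the spread behind the p-values may be technical. In the main root fit that spread was pooled over the 24 root arrays of all genotypes. In the fit with shoots it was pooled over all 48 arrays. The SEs and p-values of these fits thus do not measure the spread between the K307 root arrays alone. In whole roots, fewer cells of a type and less RNA per cell cannot be told apart.

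Root and green tissue were clearly separate on the arrays. Within set 2, the 6 photosynthesis genes PsbO, PsbP, petC, PRK, FBP and rbcl were lower in the 3 K307 root arrays than in the 3 K307 shoot arrays, by 2.24 (rbcl) to 6.42 (PRK). No gene known to mark roots was among the informative names. Low N array 1 held the highest values of the 6 root arrays in PRK, petC, FBP and rbcl, but not in PsbO or PsbP. Its set-adjusted PsbO value of 6.36 lay below the control N values of 6.46, 6.42 and 6.94. Its PsbP value of 5.97 lay among the control N values of 6.01, 5.87 and 6.17. PRK, the phosphoribulokinase of the Calvin cycle, had set-adjusted values of 6.08, 3.37 and 3.20 in low N arrays 1 to 3, against 4.14, 3.66 and 4.41 in the control N arrays. The subunit gene petC of the cytochrome b6f complex had 6.20, 4.41 and 4.47 at low N, against 5.13, 4.40 and 5.73 at control N. Averaged over the 6 genes, the arrays stood at 6.98, 5.71 and 5.56 at low N, against 6.15, 5.89 and 6.54 at control N, so the groups overlapped. The SD of the residuals of low N array 1 was 0.285, against 0.147 and 0.235 in the other low N arrays and 0.168 to 0.195 in the control N arrays. The part of this array in the responses below was not tested beyond leaving it out.

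**Figure D1:**
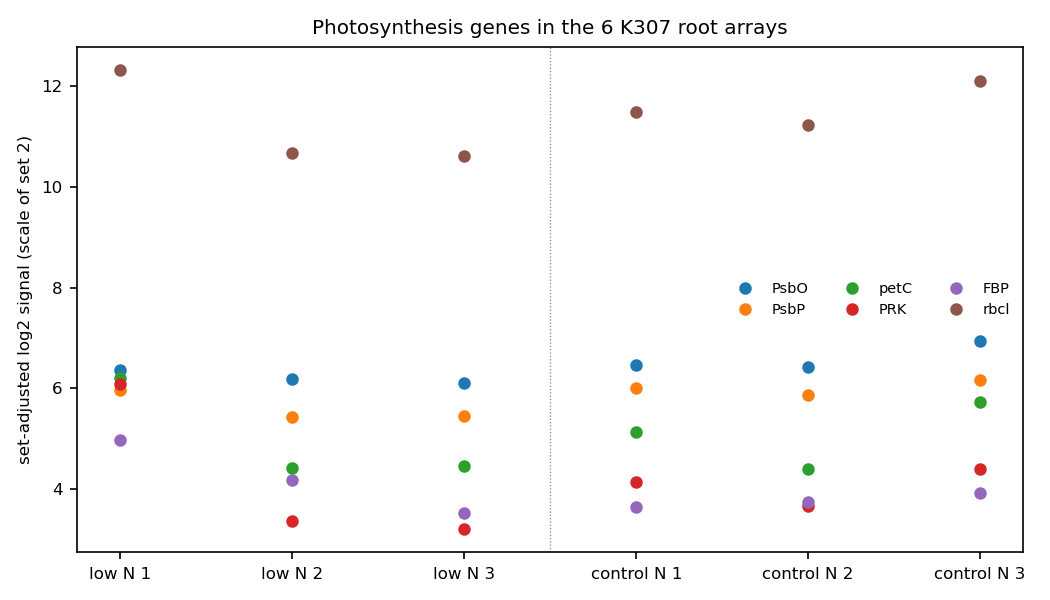
Set-adjusted log2 signal (vertical axis, scale of set 2) of 6 photosynthesis genes in each K307 root array, with the low N arrays left of the dotted line and the control N arrays right of it; each point is 1 gene in 1 array. Low N array 1 holds the highest PRK (6.08), petC (6.20), FBP (4.98) and rbcl (12.3) of the 6 arrays, but not the highest PsbO (6.36) or PsbP (5.97).

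Low N changed 1219 probe sets in K307 roots (1.99% of those tested), of which 760 (1.24%) were higher and 459 (0.750%) lower at low N (limma, adjusted p under 0.05). The median difference was 1.05 among those higher and -1.09 among those lower, against 0.02 over all probe sets. The largest rise was 5.34 and the largest fall -3.48, and 92 rises and 36 falls reached a size of 2. The set-adjusted values of the groups did not overlap in any of the 1219, where 25.4% of all probe sets had no overlap, 13.8% with low N above and 11.5% with low N below. Differences taken separately inside set 2 and inside set 3 had the same sign in all 1219, and in 64.1% of all probe sets. The medians inside the sets were 1.25 (set 2) and 0.83 (set 3) for the higher ones, and -1.22 and -0.97 for the lower ones. These are the same arrays that made the calls, so they describe the calls and do not test them.

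The call rate followed the signal level: 0.446% of the 20393 dimmest probe sets by mean root signal, 2.08% of the 20393 in the middle and 3.45% of the 20393 brightest. Probe sets that share probes with other transcripts by design (suffix x_at) were called at 2.94%, against 1.75% for those with the plain suffix at. The rate was also above the plain one for suffix s_at (3%) and suffix a_at (2.77%). The 1219 came from 650 base identifiers that were higher and 411 that were lower. The count rested on single arrays: without control N array 3 it was 263. Without low N array 1 it was 647. These 2 arrays had the highest means of the green tissue genes, 6.98 in low N array 1 and 6.54 in control N array 3, and a link was not tested. Leaving out 1 low N array of CL, number 1, which enters only through the shared spread, gave 1844. With no set term it was 167, with 60 higher and 107 lower, and from the 6 K307 root arrays alone with no set term it was 576, with 180 higher and 396 lower. With no set term the median over all probe sets moved to -0.28.

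**Figure D2:**
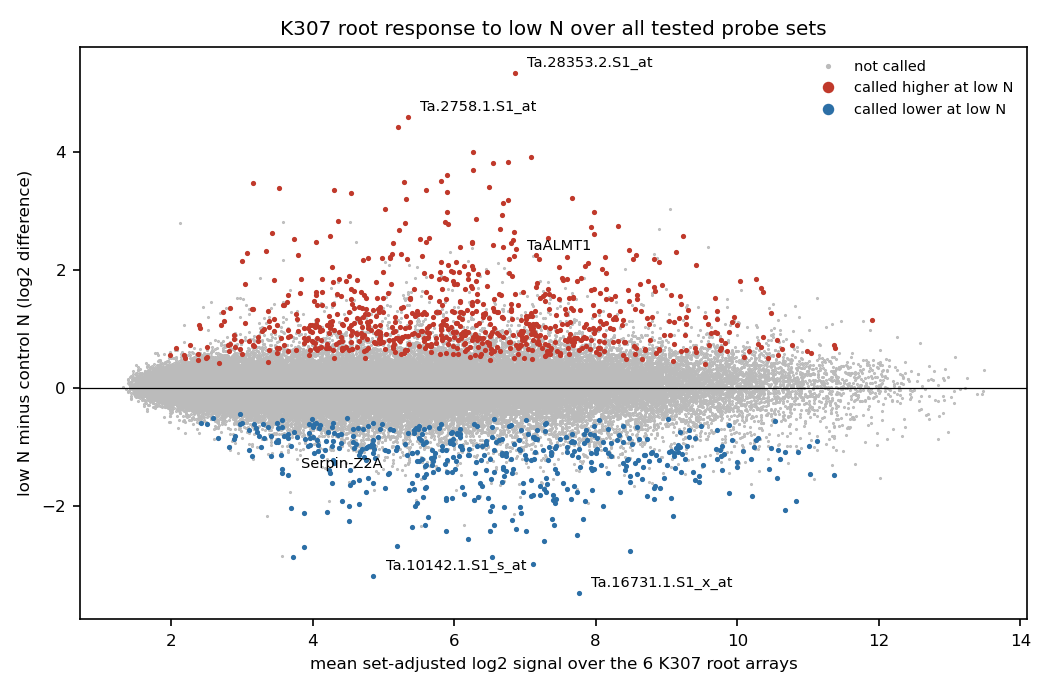
Low N minus control N difference (vertical axis, log2) against the mean set-adjusted log2 signal over the 6 K307 root arrays (horizontal axis), 1 point per probe set. The 760 probe sets called higher (red) reach 5.34 and the 459 called lower (blue) reach -3.48, while most of the 61179 lie near 0.

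The probe set annotation pairs 1273 probe sets with 1 gene each, 771 genes in all, and leaves 59906 of those tested unnamed here. Of the 1273, 42 were called (3.30%), 24 higher and 18 lower, from 19 genes that were higher and 15 that were lower. Only TaALMT1 and Serpin-Z2A of these 34 genes carry an informative name. The other 32 are known here by a locus number alone and are given no role.

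TaALMT1 was higher at low N. It encodes the aluminium-activated malate transporter, an anion channel of the root plasma membrane that releases malate and is best known for the aluminium tolerance of wheat. Its deposited signal was 8.19, 8.30 and 7.98 in the low N arrays, against 6.59, 7.13 and 5.29 in the control N arrays. All 3 low N arrays lay above all 3 control N arrays, with control array 3 the lowest. The difference was 2.23 ± 0.48 (SE, adjusted p = 0.0180, limma), with 2.80 inside set 2 and 1.71 inside set 3. The call was lost without control N array 3 (1.89, adjusted p = 0.216), without low N array 1 (2.11, adjusted p = 0.0761) and without low N array 3 (2.22, adjusted p = 0.0530). It was also lost with no set term (1.82, adjusted p = 0.249), after quantile normalization (2.15, adjusted p = 0.0568) and in the methods' t-test, which called no probe set after adjustment.

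The TaALMT1 estimates at low N in the other roots were 0.24 ± 0.46 in K9107, 0.00 ± 0.53 in HD2967 and 0.90 ± 0.46 in CL, none of them called. The K307 response exceeded that of K9107 by 1.99 ± 0.66 (adjusted p = 0.554) and that of HD2967 by 2.22 ± 0.72 (adjusted p = 0.163), so neither difference passed the test. The difference from HD2967 did pass without K9107 low N array 2 (2.07, adjusted p = 0.0422). In K307 shoots TaALMT1 was also higher at low N, by 4.56 ± 0.64 (adjusted p = 0.0160). The root response minus the shoot response was -2.33 ± 0.84 (adjusted p = 0.346), and -3.56 without shoot control array 1 (adjusted p = 0.0352).

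Serpin-Z2A, a serine protease inhibitor of the serpin family first known from the wheat grain, was lower at low N. Its deposited signal was 2.68, 3.54 and 3.02 in the low N arrays, against 4.67, 4.22 and 4.77 in the control N arrays. The low N arrays all lay below the control N arrays, near the dim end of the scale. The difference was -1.47 ± 0.37 (adjusted p = 0.0489), with -1.92 inside set 2 and -1.12 inside set 3. It passed the threshold narrowly and lost its call without any one of the 6 K307 root arrays, with an adjusted p of up to 0.410. The call was also lost with the replicate block (-1.45, adjusted p = 0.0713), with no set term (-1.47, adjusted p = 0.130), with centred arrays (-1.15, adjusted p = 0.262) and after quantile normalization (-1.22, adjusted p = 0.354). The other 7 genes of protease and amylase inhibitors were not called, and the list's median was 0.03 over 8 genes. Nearest to a call in that list were WMAI-1, an alpha-amylase inhibitor, at 0.29 (adjusted p = 0.409) and XIP-I, an inhibitor of xylanase, at -0.52 (adjusted p = 0.473).

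The largest rise was read by a probe set of the gene LOC543176. Ta.28353.2.S1_at had deposited signals of 10.2, 9.46 and 9.12 at low N, against 4.39, 5.07 and 4.76 at control N, a difference of 5.34 ± 0.69 (adjusted p = 0.000409). The other 2 probe sets of the gene rose by 3.51 and 3.69, so all 3 were called. The 2 probe set families of this gene are close in name and may share targets.

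The second largest rise with no informative name was that of Ta.2758.1.S1_at, the single probe set of LOC543397. Its deposited signal was 7.13, 8.71 and 8.18 at low N, against 4.29, 4.66 and 2.93 at control N. The groups were far apart, and the difference was 4.59 ± 0.45 (adjusted p = 2.59e-05). The largest falls came from probe sets with no gene here. Ta.16731.1.S1_x_at had 6.11, 5.55 and 6.31 at low N, against 9.72, 10.5 and 8.70 at control N, a difference of -3.48 ± 0.46 (adjusted p = 0.000478). Ta.10142.1.S1_s_at had 3.46, 2.97 and 3.05 at low N, against 5.19, 7.57 and 6.64 at control N, a difference of -3.19 ± 0.42 (adjusted p = 0.000417). In both, every low N array lay below every control N array. These 4 probe sets kept their calls without any one of the 24 root arrays, with adjusted p values of at most 0.0102.

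**Figure D3:**
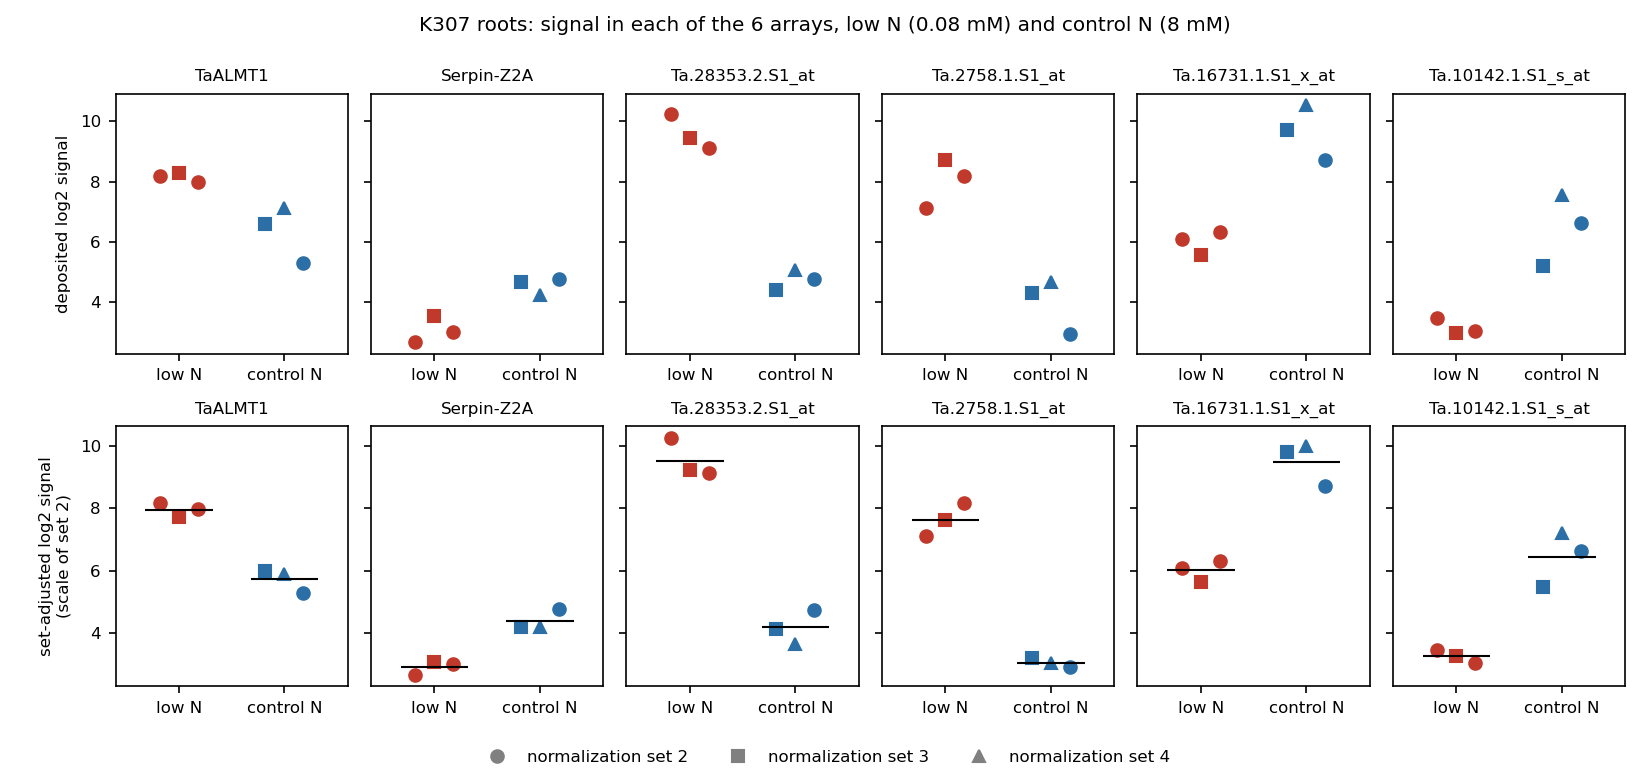
Log2 signal of 6 probe sets in each K307 root array, as deposited (upper row) and set-adjusted (lower row), with low N left and control N right in each panel; each point is 1 array, its shape gives the normalization set and the lines are group means of the adjusted values. Low N lies above control N for TaALMT1, Ta.28353.2.S1_at and Ta.2758.1.S1_at and below it for Serpin-Z2A, Ta.16731.1.S1_x_at and Ta.10142.1.S1_s_at, without overlap in either row.

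In 4 other genes more than 1 probe set was called as well; these genes were singled out after their values were seen. LOC542773 had set-adjusted values of 6.67, 6.35 and 6.87 at low N in its brighter probe set, against 5.10, 4.81 and 4.27 at control N, and its 2 probe sets rose by 1.90 and 2.27. LOC778400 had 9.71, 9.26 and 9.56 at low N in its brighter probe set, against 8.09, 7.69 and 7.48 at control N, and its 2 probe sets rose by 1.76 and 1.50. In both genes every low N array lay above every control N array. The 2 probe sets of LOC542943 rose by 0.63 each. Of the 8 probe sets of LOC606373, 4 were called lower, and all 8 had estimates below 0, between -0.35 and -1.34. Its brightest probe set (-0.96, adjusted p = 0.164) and the one with the largest fall (-1.34, adjusted p = 0.117) were not called. The brightest called probe set of each of these genes lost its call without control N array 3, with adjusted p values of 0.116 for LOC542773, 0.0859 for LOC778400, 0.210 for LOC542943 and 0.117 for LOC606373. That of LOC542943 was also lost without control N array 2, low N array 1 or low N array 3 (adjusted p up to 0.101), and that of LOC606373 without control N array 1, low N array 1 or low N array 2 (adjusted p up to 0.128). With no set term all 4 lost their calls, with adjusted p values of 0.122 for LOC542773, 0.162 for LOC778400, 0.765 for LOC542943, whose estimate was then 0.32, and 0.109 for LOC606373. LOC542943 also lost its call after quantile normalization (adjusted p = 0.0736) and with a trended, robust spread (adjusted p = 0.0557). All 4 lost it when the 6 K307 arrays were fitted alone with the set term.

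The other informatively named genes gave no call in any of the remaining lists. Each gene was read from its brightest probe set over the root arrays. The median difference over the 102 genes was -0.02, with 48 above 0 and 54 below, against 0.02 over all probe sets. Of the 102, 15 had an unadjusted p under 0.05, which is close to the 14.9% of all probe sets that did. A gene whose test did not pass is not shown to be unchanged.

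**Figure D4:**
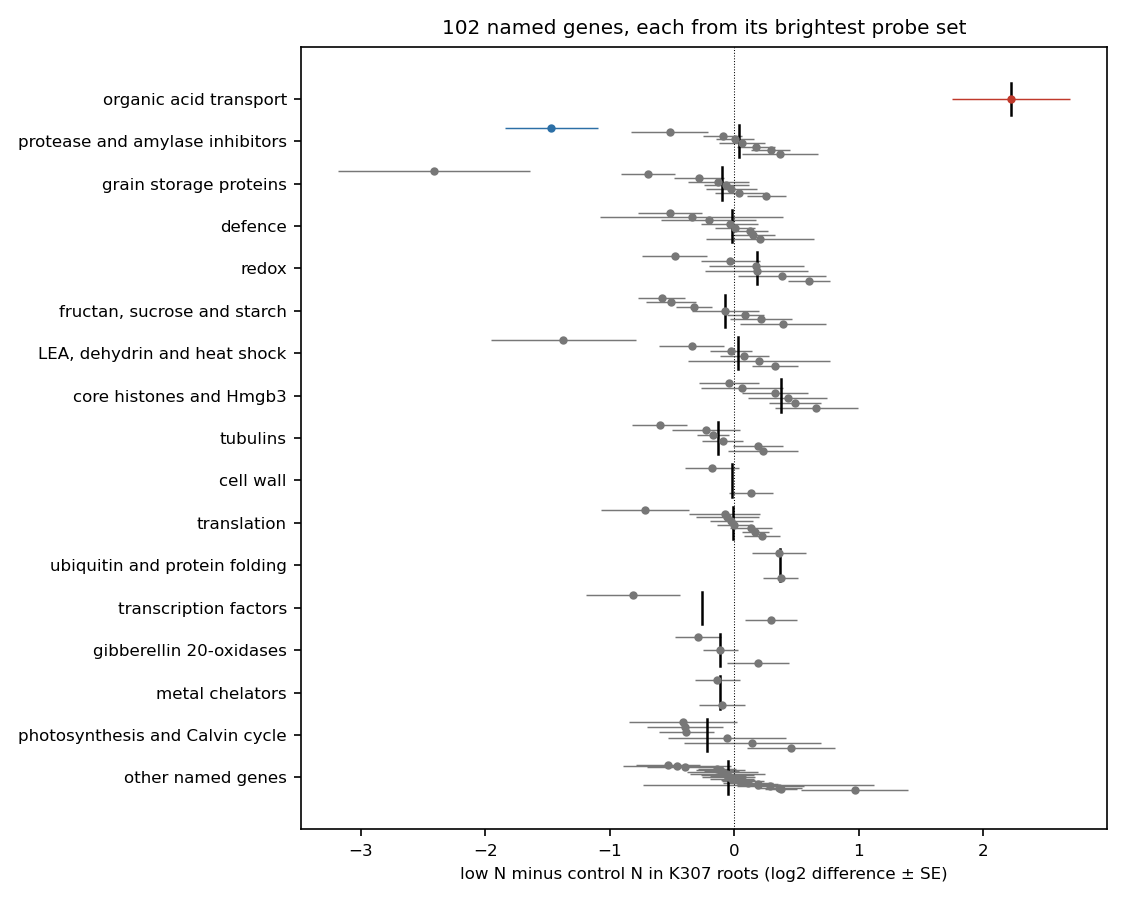
Low N minus control N difference in K307 roots (horizontal axis, log2, with SE bars) of the 102 informatively named genes, grouped by function; short vertical lines are list medians. TaALMT1 (red, 2.23) was called higher and Serpin-Z2A (blue, -1.47) lower, and the grey points were not called.

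Among the 7 genes of carbon reserves, 3 had an unadjusted p under 0.05, as did 14.9% of all probe sets. All 3 had estimates below 0. These were 6-FEH, a fructan exohydrolase, at -0.58 ± 0.19 (adjusted p = 0.133), Wx-A1, the granule-bound starch synthase, at -0.51 ± 0.20 (adjusted p = 0.224) and IVR1, an invertase, at -0.32 ± 0.14 (adjusted p = 0.298). The median of the 7 genes of fructan, sucrose and starch was -0.07, with 3 estimates above 0, up to 0.39, and 4 below. That median was -0.14 without control N array 2 and 0.07 without control N array 3. Over the 3 genes kept when only the brighter probe sets were fitted, it was 0.21. The proton pump gene ha1, which energises nutrient uptake across the plasma membrane, was at 0.38 ± 0.13 (adjusted p = 0.150). Its set-adjusted values were 12.14, 11.98 and 12.21 at low N, against 11.88, 11.67 and 11.66 at control N. These did not overlap, as in 25.4% of all probe sets. PEAMT1, a methyltransferase of choline synthesis, was at 0.97 ± 0.43 (adjusted p = 0.293).

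In the redox list, lgul, the glyoxalase that removes methylglyoxal, came closest to a call at 0.60 ± 0.17 (adjusted p = 0.0813), with 0.94 inside set 2 and 0.07 inside set 3. It passed the test with the replicate block (0.61, adjusted p = 0.0246) and without control N array 1 (0.88, adjusted p = 0.0111). The peroxiredoxin gene PER1 was at -0.48 (adjusted p = 0.419) and the plastid thioredoxin gene Trx-M at 0.38 (adjusted p = 0.684). For Trx-M, low N array 1 stood at 4.39, against 2.81 to 3.26 in the other 5 root arrays, and without it the estimate was -0.11. The list's median was 0.18 over 6 genes. It was -0.15 without low N array 1, 0.03 without control N array 2 and 0.54 without low N array 2, and -0.14 with no set term.

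Among grain storage proteins, avnla, an avenin-like protein, had the widest gap that was not called. Its set-adjusted values were 5.79, 5.61 and 4.48 at low N, against 7.09, 7.84 and 8.17 at control N. All low N arrays lay below all control N arrays, as in 11.5% of all probe sets. The difference was -2.41 ± 0.77 (adjusted p = 0.124). The gliadin gene Gli-D2-16 was at -0.69 ± 0.22 (adjusted p = 0.114), with -1.32 inside set 2 and 0.01 inside set 3. The related avnlb was at 0.26 (adjusted p = 0.487). The list's median was -0.10 over 8 genes. LEA1, a late embryogenesis abundant protein linked to drying tissue, was at -1.37 ± 0.58 (adjusted p = 0.265), and the 6 genes of LEA, dehydrin and heat shock proteins had a median of 0.03.

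The core histones and the chromatin protein gene Hmgb3 had the highest median of the lists with more than 2 genes, 0.38 over 6 genes, of which 5 had estimates above 0. The nearest to a call were wcH2A-3 at 0.49 ± 0.21 (adjusted p = 0.278), wcH2A-9 at 0.66 ± 0.33 (adjusted p = 0.371) and wcH2B-8 at 0.43 ± 0.31 (adjusted p = 0.584). Hmgb3 was at -0.04 ± 0.24. The list's median was 0.14 with no set term and 0.46 with each array centred on its own median. Without low N array 1 it was 0.12. Without low N array 3 it was 0.55. Without control N array 3 or low N array 2 the redox list had the higher median.

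The 6 tubulin genes had a median of -0.13, and the beta tubulin gene Tubb5 was nearest to a call at -0.60 ± 0.22 (adjusted p = 0.194). Its set-adjusted values were 9.17, 9.31 and 9.23 at low N, against 9.96, 9.77 and 9.77 at control N. These did not overlap, as in 25.4% of all probe sets. With the 6 CL arrays left out of the fit, Tubb5 passed the test with the same estimate (adjusted p = 0.0103), as it did without CL low N array 1 alone (adjusted p = 0.0382). The 8 genes of translation had a median of -0.01, with the ribosomal protein gene RPS29 at -0.72 (adjusted p = 0.352). In the defence list Glc1 was at -0.52 (adjusted p = 0.366), and the list's median was -0.02 over 8 genes.

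The 3 genes of gibberellin synthesis (GA20ox1a, GA20ox1b and GA20ox1d) lay between -0.29 and 0.19. The 2 cell wall genes, COMT1 of lignin synthesis and the xyloglucan-modifying XTH, were at 0.13 and -0.18. The metal chelator genes DMAS1 and PCS1 were at -0.10 and -0.13. The 6 photosynthesis genes, whose array 1 values are given above, had a median of -0.22 and lay between -0.41 and 0.45. That median was -0.63 without low N array 1, but above 0 without control N array 3 (0.17), low N array 2 (0.25) or low N array 3 (0.07). Of all 17 lists, 10 had a median that changed sign without at least 1 of the 6 K307 root arrays.

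The transcription factor gene WZF1, a zinc finger protein, was at -0.82 ± 0.38 (adjusted p = 0.317), with -1.41 inside set 2 and -0.34 inside set 3. UBC1, a ubiquitin-conjugating enzyme, was at 0.37 ± 0.14 (adjusted p = 0.200). FKBP70, an isomerase that helps proteins fold, was at 0.36 ± 0.22 (adjusted p = 0.478). The set-adjusted values of FKBP70 were 9.44, 9.82 and 10.1 at low N, against 9.44, 9.39 and 9.46 at control N, so array 1 lay level with the control N arrays.

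The K307 root response was next set beside that of K9107 roots, tested as the difference of the 2 responses. The difference was called for 1 probe set (0.00163%), and 6.97% of probe sets had an unadjusted p under 0.05. That probe set, Ta.1221.1.A1_at, has no gene here. In K307 roots its deposited signal was 5.12, 5.65 and 5.30 at low N, against 7.09, 7.46 and 6.48 at control N, a fall of -1.37 ± 0.22 (adjusted p = 0.00232). Its response was 0.94 in K9107 and 1.40 in HD2967, both called higher, 0.10 in CL roots and 0.30 in K307 shoots. The response of K307 minus that of K9107 was -2.32 ± 0.30 (adjusted p = 0.0261). The call was lost in 11 of the 24 fits that leave out 1 root array, with adjusted p of up to 0.417 without K9107 low N array 3. It was also lost with the replicate block (-2.30, adjusted p = 0.0938), without the CL arrays (adjusted p = 0.0900), after quantile normalization (adjusted p = 0.313) and with no set term (adjusted p = 0.899).

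Of the probe sets called in K307 roots, 181 were also called higher and 80 also called lower in K9107 roots, where 555 were called (0.907%), 342 higher (0.559%) and 213 lower (0.348%). The 181 are 23.8% of the K307 list and 52.9% of the K9107 list, and the 80 are 17.4% and 37.6%. Estimates had the same sign in K9107 for 88.9% of the higher and 86.1% of the lower ones, against 54.2% of all probe sets. The groups of the 2 comparisons share no array, but the comparisons share the set offsets of 1 fit. Through these offsets each K9107 root array also had a weight of 0.045 or -0.091 in the K307 estimates. The K9107 medians over the K307 lists were 0.51 and -0.49. In CL roots, whose values are on a compressed scale of their own, the medians were 0.08 and -0.20. There 1246 probe sets were called (2.04%), 770 higher (1.26%) and 476 lower (0.778%), and they held 42 of the K307 rises and 51 of the K307 falls.

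HD2967 roots had all 3 control N arrays in set 3, and low N arrays 1, 2 and 3 in sets 4, 2 and 3. Their response thus rests in part on the set offsets, which arrays of K307 and K9107 help to fix. Against HD2967 roots, the response differed in 492 probe sets (0.804%), 266 (0.435%) with the K307 response the greater and 226 (0.369%) with it the lesser. That split was 322 and 155 with each array centred on its median, 138 and 61 after quantile normalization, and 8 and 59 with no set term. It was 448 and 579 with the replicate block and 390 and 441 with the set as a random block, so the lesser responses were the more numerous in these 2 fits as well. Among annotated genes with an informative name only FKBP70 was called, with a K307 response of 0.36 and an HD2967 response of -1.68. The difference was 2.03 ± 0.33 (adjusted p = 0.00799). It was lost without K307 control array 1 (2.05, adjusted p = 0.0615) and with no set term (1.75, adjusted p = 0.0846). LOC543397 also differed: it rose by 4.59 in K307 and by 4.25 in K9107, and stood at 0.35 in HD2967 and 0.30 in CL. The response of K307 minus that of HD2967 was 4.24 ± 0.68 (adjusted p = 0.00799). This call too was lost without K307 control array 1 (4.43, adjusted p = 0.0530) and with no set term (3.88, adjusted p = 0.0660). For LOC543176 the estimates were 5.34 in K307, 4.76 in K9107, 3.05 in HD2967 and 2.58 in CL, and K307 minus HD2967 was 2.29 ± 1.05 (adjusted p = 0.369).

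In HD2967 roots, where 2058 probe sets were called (3.36%), 929 higher (1.52%) and 1129 lower (1.85%), 104 of the probe sets that were higher in K307 and 77 of those that were lower were called in the same direction. These are 13.7% and 16.8% of the K307 lists, and 11.2% and 6.82% of the HD2967 lists. In the opposite direction 9 and 10 were called. The count of 492 was unstable: it was 65 without K307 control array 1 and 1127 without HD2967 control array 1.

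The root response of K307 differed from its shoot response in 218 probe sets (0.356%), 134 (0.219%) with the root response the greater and 84 (0.137%) with it the lesser. In the shoots themselves 28 probe sets were called (0.0458%), 14 higher (0.0229%) and 14 lower (0.0229%), of which 7 were also higher and 0 also lower in the roots. The probe sets called in roots had shoot medians of 0.12 for the higher and 0.05 for the lower ones. LOC543397 and LOC543176 were near 0 in shoots (-0.17 and 0.04), and root minus shoot was 4.76 ± 0.54 (adjusted p = 1.28e-05) and 5.30 ± 0.77 (adjusted p = 0.000522). Both were dim in shoots, with K307 means of 3.06 and 2.88. The count of 218 was 77 without K307 root control array 3, and 128, 110 and 109 without K307 shoot control array 1, shoot control array 3 and shoot low N array 3.

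Of the informatively named genes, THI1.3 and Serpin-Z2A differed between the organs. THI1.3 encodes a thionin, a small antimicrobial peptide. It stood at 0.12 ± 0.15 in roots and was lower at low N in shoots by -2.04 ± 0.30. Its mean in roots was 2.00, a dim signal that leaves little room for a fall there. The root response minus the shoot response was 2.16 ± 0.34 (adjusted p = 0.000978), a call lost with no set term (2.06, adjusted p = 0.195). The related THI1.1 gave 2.22 ± 0.54 (adjusted p = 0.0605). For Serpin-Z2A the shoot estimate was 0.69, and root minus shoot was -2.17 ± 0.50 (adjusted p = 0.0414), a call lost in 11 of the 12 fits that leave out 1 K307 array and with no set term (-1.93, adjusted p = 0.662).

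**Figure D5:**
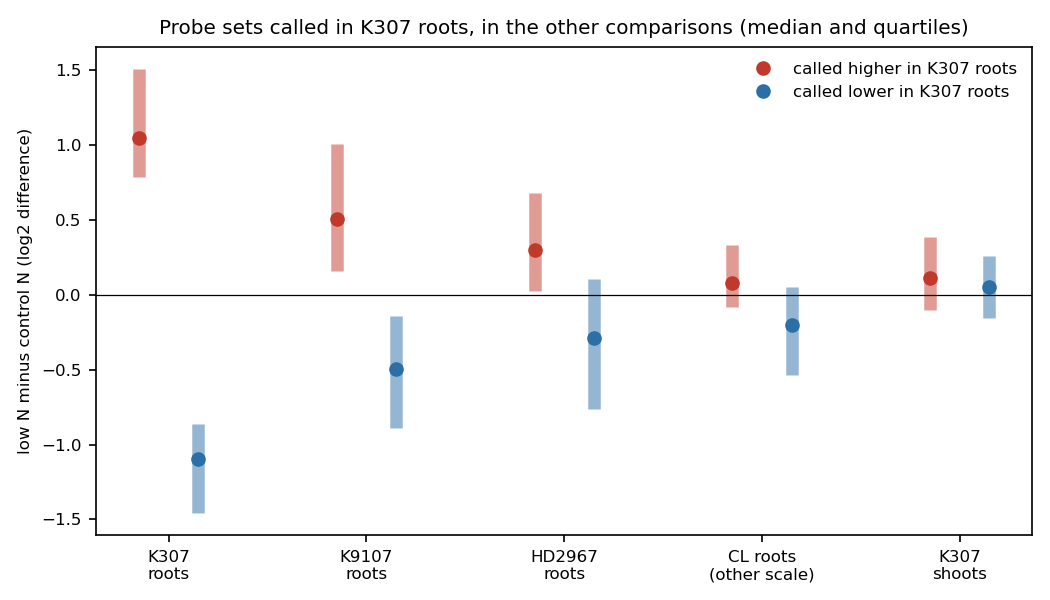
Low N minus control N difference (vertical axis, log2) of the 760 probe sets called higher (red) and the 459 called lower (blue) in K307 roots, in K307 roots and in 4 other comparisons; points are medians and bars run from the lower to the upper quartile. The medians of 1.05 and -1.09 in K307 roots, which the calls themselves fix, compare with 0.51 and -0.49 in K9107 roots, 0.30 and -0.29 in HD2967 roots, 0.08 and -0.20 in CL roots and 0.12 and 0.05 in K307 shoots.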

How the data were processed

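The authors deposited log2 values for 61290 probe sets, which RMA produced, per the submitters' processing notes. They then used GeneSpring 14.5 and a Student's test with a threshold of 0.1, per the series' design text. How RMA was set, and on which arrays jointly, is not given in the sources used here. Without detection calls, precision is limited by the number of arrays.

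Normalization sets are ranges of array medians parted by gaps of over 0.1. The two-sided tests came from lmFit, contrasts.fit and eBayes of limma 3.58.1, run in R 4.3.3 over the 24 root arrays, with 8 group means, the set as a fixed term, 14 residual degrees of freedom and Benjamini-Hochberg adjustment over 61179 probe sets (threshold 0.05). The median residual SD was 0.227 with the set term, against 0.435 without it. Root and shoot responses were compared in 1 fit of 48 arrays with sets within tissue. Fits were also run on simulated data with independent noise of a single SD per probe set. The K307 root arrays had residual SDs of 0.147 to 0.285, so those runs do not show how the tests hold in these arrays. No 2 of the 6 arrays held the same values throughout.

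Gene names came from the platform annotation and a RefSeq gene table (IWGSC CS RefSeq v2.1), in which 770 of 771 genes were found by gene ID. The rule named called genes with an informative name, otherwise the 3 of smallest p in each list, the 2 largest rises and falls with no such name, and TaALMT1, FKBP70, WZF1, UBC1 and Hmgb3. The groups, lists and rule were chosen with earlier results of these data known. Replicate numbers gave no sign of pairing arrays: residuals of same-numbered low N and control N arrays correlated at -0.05, -0.10 and -0.11. Those of differently numbered arrays correlated at -0.26 to 0.34. Residuals within a group are not independent after the fit, so these correlations cannot exclude pairing. Alternatives covered the set term, centring, quantile normalization, the arrays in the fit, a replicate block, a filter on dim probe sets, variance moderation, the methods' t-test and leaving out each root array. For roots against shoots, only the 12 K307 arrays were left out in turn.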

Additional observations from a re-analysis of the deposited data

Results flagged for a closer look

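The response of K307 roots to low N differed from another response, by a test of the difference itself, for 8 of the probe sets named above. Against K9107 roots, Ta.1221.1.A1_at differed by -2.32. Against HD2967 roots, it differed by -2.77 (adjusted p = 0.00111), FKBP70 by 2.03 and Ta.2758.1.S1_at, the probe set of LOC543397, by 4.24. Against K307 shoots, Ta.28353.2.S1_at of LOC543176 differed by 5.30, Ta.2758.1.S1_at by 4.76, THI1.3 by 2.16, Serpin-Z2A by -2.17, Ta.16731.1.S1_x_at by -3.43 (adjusted p = 0.00196), Ta.10142.1.S1_s_at by -3.03 (adjusted p = 0.0243) and Ta.1221.1.A1_at by -1.67 (adjusted p = 0.00359). The K307 shoot mean was 1.99 for Ta.16731.1.S1_x_at and 2.77 for Ta.1221.1.A1_at, so both were dim in shoots, while it was 5.49 for Ta.10142.1.S1_s_at. THI1.3 was dim in roots. In groups of 3 arrays no test for a single outlying array was run.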

How the results depend on the processing

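The 1219 calls of the K307 root response became 167 with no set term, 475 after quantile normalization, 2987 without the CL arrays, 118 from the 6 K307 arrays with the set term and 576 without it. The methods' t-test gave 6172 at p of at most 0.1 (10.1%), 821 higher and 5351 lower, and 0 after adjustment, with 3060 at an unadjusted p under 0.05. Leaving out 1 array gave 263 to 1844. The replicate block gave 1214. The 1 call against K9107 became 0 with no set term, after quantile normalization and with the replicate block, 2 with the set as a random block or centred arrays, and 0 to 8 with 1 array left out. The 492 against HD2967 became 67 with no set term, 831 with a random block, 199 after quantile normalization, 1522 without the CL arrays, 1027 with the replicate block and 65 to 1127 with 1 array left out. The 218 against shoots became 5 with no set term and 123 in the brighter probe sets. That count was 77 to 215 with 1 of the 12 K307 arrays left out, and the replicate block gave 224. None of the 10 named called results changed sign, and the cause of the moves was not tested. Of 44 named results not called, 7 were called under some alternative (Tubb5, lgul, LEA1, 6-FEH, Gli-D2-16, PFK and avnla) and 15 changed sign. With no set term, alike in the fit of all arrays, that of 6 and the t-test, COMT1 lay at -0.12, TTHV at -0.15, THI1.3 at -0.12, GA20ox1b at -0.17, EMH2 at -0.17, WMAI-1 at -0.22, TBP1 at -0.014 and TEF1 at -0.11. With centred arrays GA20ox1a lay at 0.24, PCS1 at 0.0059 and TUBA at 0.0010. With 1 array left out, COMT1 ran between -0.0084 and 0.28, DMAS1 between -0.27 and 0.060, Trx-M between -0.11 and 0.83, GA20ox1a between -0.24 and 0.047, and Hmgb3 between -0.35 and 0.10. From the 6 arrays with the set term Hmgb3 lay at 0.090. As the median of its probe sets avnlb lay at -0.27, TUBA at 0.13 and Hmgb3 at 0.012. With 3 arrays a group, a difference that missed the threshold may still exist.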
